A study of Homo sapiens with 27 samples.

Results

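The transcription factor ATF4 and 9 further genes of the integrated stress response (DDIT3, TRIB3, ASNS, CHAC1, SESN2, PSAT1, PHGDH, DDIT4 and VLDLR) were followed in U2OS cells, an established human osteosarcoma line, by mRNA-Seq of poly(A) RNA. The 10 genes are ATF4 and genes known as its targets. No measured value enters the rule, but the list was drawn up with earlier results of these data known. All 10 were found among the 55882 gene symbols of the count files. The experiment was made to find genes whose expression depends on MMP-2, a protease that also cuts the tail of histone H3 in the nucleus. The control cells, WT in the sample titles, carried the blank pLKO.1 vector according to the treatment notes and the study's methods, and MMP2sh1 and MMP2sh2 cells carried the same vector with one or the other shRNA (short hairpin RNA) against MMP2. Each line was collected when subconfluent (day −2), at confluence (day 0) and when overconfluent (day +2), with 3 independent replicates in each of the 9 groups and 27 libraries in all. By those methods all groups shared lentiviral transduction, puromycin selection and a medium with serum, GlutaMAX and added non-essential amino acids. Each hairpin was represented by 1 stable line, so the hairpin and the history of the line cannot be told apart, and whether the medium was renewed between day −2 and day +2 is not given in the sources used here.

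In the integrated stress response, kinases that sense amino acid shortage, unfolded protein in the endoplasmic reticulum (ER), double-stranded RNA or haem deficiency phosphorylate the translation initiation factor eIF2. Most translation then falls, while the mRNA of ATF4 is translated more, and ATF4 protein enters the nucleus and activates genes for amino acid synthesis and import, tRNA charging and feedback on the response itself. The main control of ATF4 is thus on its translation, which mRNA-Seq does not measure, and the levels below are those of mRNA.

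ATF4 binds DNA together with C/EBP proteins at a composite motif whose usual letters are TGATGNAA, where N is any base. This motif was searched on both strands from 500 bases before to 100 bases after the start of 1 transcript of each gene, in the GRCh37 genome with the GENCODE v44 annotation. It was found in 5 of the 10 windows, and in 5.25% of the 20087 windows of protein-coding genes searched in the same way. A match is a description of the letters and not a measured binding site. The matches are shown with the bases around them, because they mark which of these genes carry the known target letters near their start. Each line is written 5′ to 3′ on the strand of the gene, and the capitals mark the motif, which reads TTGCATCA or TTTCATCA where it lies on the other strand.
DDIT3, chr12:57914585-57914614, minus strand: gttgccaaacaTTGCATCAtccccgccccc
ASNS, chr7:97501770-97501799, minus strand: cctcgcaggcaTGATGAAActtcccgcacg
CHAC1, chr15:41245449-41245478, plus strand: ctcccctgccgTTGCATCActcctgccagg
SESN2, chr1:28585722-28585751, plus strand: gtgaagtccctTTTCATCAcgcaaccctaa
VLDLR, chr9:2621338-2621367, plus strand: agcaacgatagTTGCATCAgcgctaactgc

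The match nearest to a start was that of ASNS, which began at −68 (negative positions count bases before the start), and the farthest was that of VLDLR, which began at −438. In CHAC1 the match began at −209, in SESN2 at −296 and in DDIT3 at −306. No match to these letters lay in the windows of ATF4, TRIB3, PSAT1, PHGDH and DDIT4, which says nothing of other windows or spellings.

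**Figure D1:**
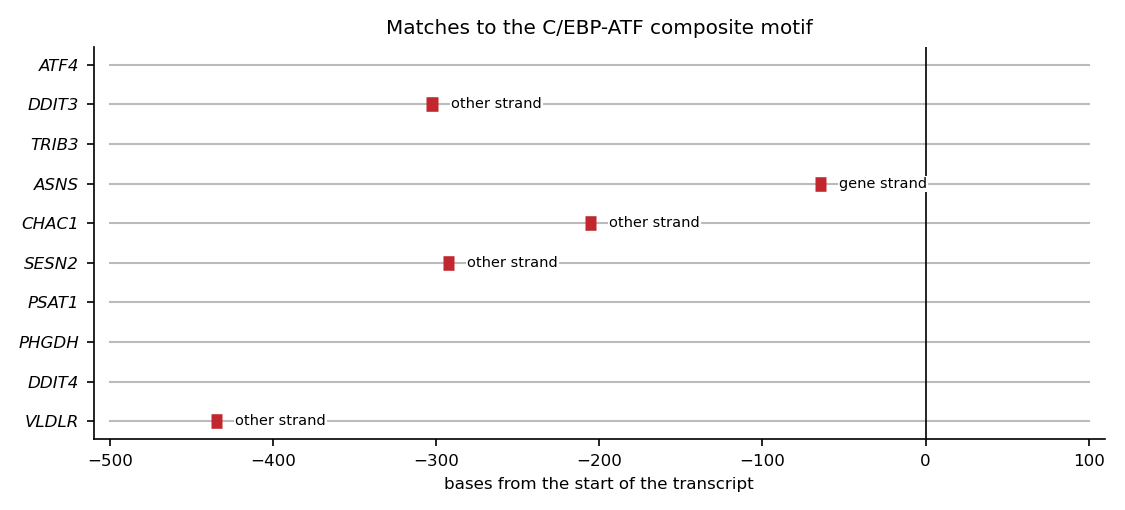
Matches to the C/EBP-ATF composite motif in the windows around the transcript starts of the 10 genes, plotted in bases from the start (x axis) with 1 row for each gene and the strand of each match beside it. Matches are seen in 5 of the 10 rows, and that of ASNS, at −68, is the nearest to the start.

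The libraries held between 33580129 and 59374327 counts on genes (median 40075178). MMP2 was at 17.3%, 18.1% and 19.8% of control in MMP2sh1 cells at days −2, 0 and +2, and at 61.7%, 48.1% and 56.8% in MMP2sh2 cells, so the stronger depletion was in MMP2sh1. The bone gene RUNX2 (30.0 to 63.7 CPM, counts scaled to the size of the library) and the mesenchymal genes COL1A1, SPARC and VIM were read in every library, whereas COL1A2, the partner chain of COL1A1, was at 0 to 0.683 CPM. Of 7 measured markers of blood, endothelium, epithelium, glia and liver, the T-cell gene CD3E was at 0 in 26 libraries and the liver gene ALB in 24, and the highest was EPCAM with 3.12 to 6.73 CPM.

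Levels are given as CPM scaled with TMM factors (trimmed mean of M values) over all 27 libraries. ATF4 was the most abundant of the 10 genes per length, with a mean of 168 CPM per kilobase of exon over the 27 libraries. PHGDH (33.3 CPM per kilobase), PSAT1 (26.0) and ASNS (25.5) followed, and VLDLR was the lowest with 1.21. The length is that of all exons of the gene in the GENCODE v44 annotation, merged. It was 2613 bases for ATF4, 9187 for PHGDH and 16507 for VLDLR. Lengths of single transcripts were not used, and the order by them was not tested. Every member passed the filter on low counts in each of the 19 comparisons, and the lowest count of any member in any library was 134, for CHAC1. The level of DDIT4 varied most between the 9 group means, by 6.92 times from the lowest to the highest, followed by CHAC1 with 3.62 times and ASNS with 3.18 times. The level of ATF4 varied least, by 1.32 times.

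**Figure D2:**
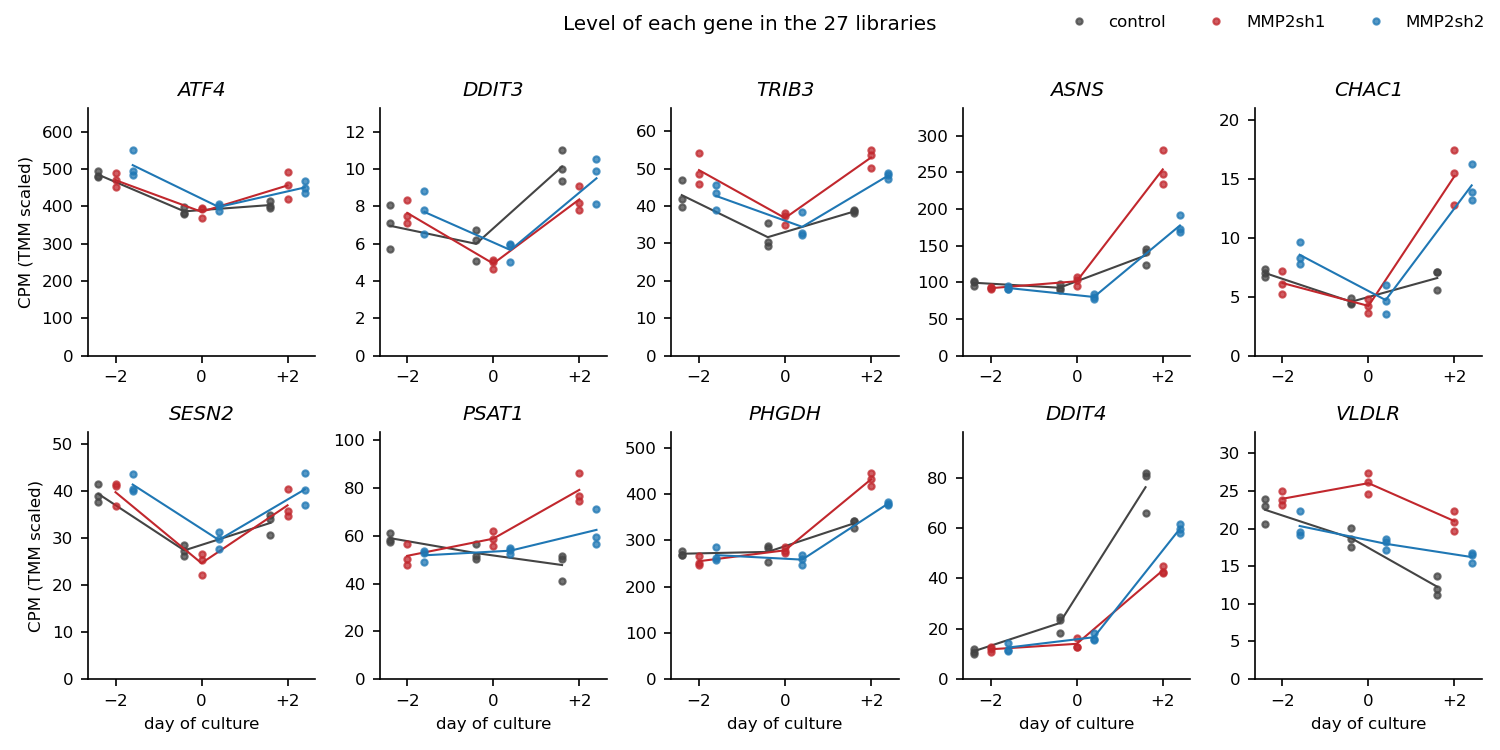
Level of each gene (y axis, CPM on a linear scale from 0) against the day of culture (x axis) in the control, MMP2sh1 and MMP2sh2 lines. Points are the 27 single libraries, shifted sideways by line, and lines join the means of 3; at day +2 the ASNS points of MMP2sh1 lie at 234 to 281 CPM, above all control points.

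The control line shows how these genes moved over the days of culture without a hairpin against MMP2. Time in culture and cell density changed together over these days. From day −2 to day 0, 6 of the 10 fell and 1 rose, where 35.5% of all 19317 genes tested were called in either direction and 19.1% as lower (edgeR's quasi-likelihood test, adjusted p under 0.05 after Benjamini-Hochberg adjustment over all genes, the rule for each call below). From day 0 to day +2, 7 rose and 1 fell, where 41.4% of all genes were called and 21.3% as higher. Their median log2 fold change was −0.23 over the first step and 0.31 over the second, and that of all genes was 0.02 and 0.01.

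ATF4 itself was at 480.4, 496 and 479 CPM in the 3 control libraries of day −2, at 383, 380.1 and 397 at day 0, and at 400.3, 415 and 396 at day +2. All day −2 libraries lay above the later ones. The first step was −0.32 on the log2 scale (standard error 0.04, adjusted p = 4.5e-07 from edgeR), and the second, 0.08, did not pass the test (adjusted p = 0.12 from edgeR).

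DDIT4, which encodes REDD1, an inhibitor of the growth kinase mTORC1, took another course and rose over both steps. It was at 10.9, 10.1 and 12.1 CPM in control libraries at day −2, at 24.6, 23.7 and 18.5 at day 0 and at 66.1, 81.8 and 80.9 at day +2. No libraries of different days overlapped. On the log2 scale these rises were 1.02 (standard error 0.11, adjusted p = 1.4e-08 from edgeR) and 1.80 (standard error 0.09, adjusted p = 7.3e-17 from edgeR).

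TRIB3, SESN2 and CHAC1 fell over the first step and rose over the second. TRIB3, a pseudokinase that binds ATF4 and restrains it, fell by 0.43 on the log2 scale and then rose by 0.31. SESN2, an inhibitor of mTORC1 that senses leucine, fell by 0.52 and then rose by 0.30, and CHAC1, an enzyme that breaks down glutathione, fell by 0.61 and then rose by 0.55. DDIT3, which encodes the transcription factor CHOP, was not called over the first step (log2 fold change −0.20, adjusted p = 0.33 from edgeR) and rose by 0.78 over the second.

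Of the biosynthetic enzymes, ASNS (asparagine synthetase) rose by 0.58 over the second step, and PHGDH, which catalyses the first step of serine synthesis, by 0.31. Neither was called over the first step. PSAT1, the next enzyme of serine synthesis, fell by 0.16 over the first step, with an adjusted p of 0.038 from edgeR, and was at −0.12 over the second, which was not called. VLDLR, a lipoprotein receptor, fell over both steps, by 0.25 and 0.59. The first-step calls of PSAT1 and VLDLR were each lost in 4 of 6 fits that left out 1 library (adjusted p up to 0.16 and 0.12 from edgeR).

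The same steps were followed in the hairpin lines. In MMP2sh1 cells, 5 of the 10 fell and 2 rose from day −2 to day 0, where 32.7% of all genes were called and 17.7% as lower. The 2 were PSAT1 with 0.19 and PHGDH with 0.13 (adjusted p = 0.039 from edgeR for each). The call of PHGDH was lost in 5 of 6 fits that left out 1 library (adjusted p up to 0.18 from edgeR). That of PSAT1 was lost without replicate 2 or 3 of day −2 or any replicate of day 0 (up to 0.20). From day 0 to day +2, 9 rose and 1, VLDLR, fell, where 46.0% of all genes were called and 23.1% as higher. In MMP2sh2 cells, 6 fell and 1 rose over the first step, where 30.3% of genes were called and 16.4% as lower. Over the second step 9 rose and none fell, with VLDLR at −0.12 and not called, where 45.5% were called and 22.5% as higher. The median log2 fold change of the 10 genes over the second step was 0.62 in MMP2sh1 and 0.54 in MMP2sh2 cells, beside 0.31 in control cells and 0.01 for all genes in each of the lines.

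**Figure D3:**
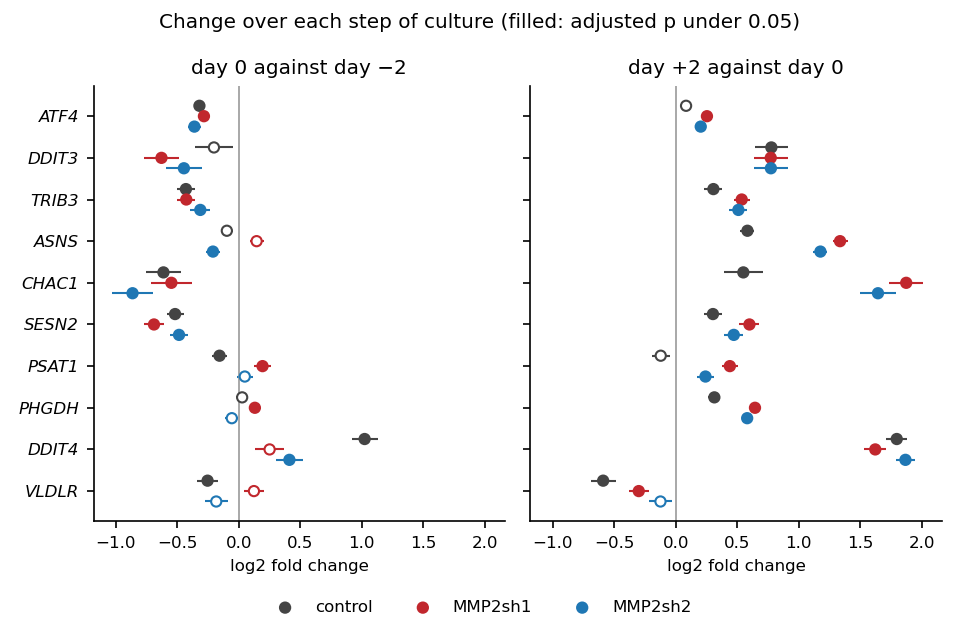
Log2 fold change of each gene (x axis) from day −2 to day 0 (left) and from day 0 to day +2 (right) in the 3 lines, with bars of 1 standard error and filled points for adjusted p under 0.05. Over the second step CHAC1 changed by 0.55 in control, 1.87 in MMP2sh1 and 1.64 in MMP2sh2 cells, while DDIT3 changed by 0.78, 0.77 and 0.77.

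Whether a step differed between a hairpin line and the control was tested as the interaction of line and day on 12 libraries. For MMP2sh1, 4 of the 10 genes rose more than in control cells from day 0 to day +2, where 4.66% of all genes had a called difference and 2.85% one in this direction. The differences on the log2 scale were 1.34 for CHAC1 (standard error 0.20, adjusted p = 5.0e-05 from edgeR), 0.77 for ASNS, 0.58 for PSAT1 and 0.34 for PHGDH. For MMP2sh2, 5 genes differed in this direction, where 4.76% of all genes did in either and 2.09% in this one. They were CHAC1 with 1.10 (standard error 0.21, adjusted p = 7.4e-04 from edgeR), ASNS with 0.60, VLDLR with 0.47, PSAT1 with 0.37 and PHGDH with 0.27. Both sets of differences use the same control libraries. The call of PSAT1 in MMP2sh2 was lost in 7 of 12 fits that left out 1 library (adjusted p up to 0.19 from edgeR), that of VLDLR in 9 of 12 (up to 0.13) and that of PHGDH without MMP2sh2 replicate 1 of day 0 (adjusted p = 0.051 from edgeR).

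DDIT3 showed no such difference in either hairpin line, with values of 0.01 (standard error 0.19) in MMP2sh1 and 0.00 (standard error 0.19) in MMP2sh2. Over the first step the called difference was that of DDIT4, which rose less than in control cells. It was −0.77 in MMP2sh1 (adjusted p = 0.0097 from edgeR), where 1.35% of all genes had a called difference, and −0.60 in MMP2sh2 (adjusted p = 0.024 from edgeR), where 3.69% did. The first call was lost without control replicate 1 or MMP2sh1 replicate 2 of day 0 (adjusted p up to 0.051 from edgeR), and the second in 7 of 12 fits that left out 1 library (up to 0.081).

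Relative to control, the hairpin lines had no called difference in any of the 10 genes in subconfluent cells. At day −2, 0 of 10 were called in MMP2sh1, where 11.6% of all genes were, and 0 of 10 in MMP2sh2, where 11.0% were (edgeR's quasi-likelihood test). At an unadjusted p under 0.05 there were 2 of 10 in each line. DESeq2 called 0 in MMP2sh1 and 1 in MMP2sh2, which was PSAT1, as lower. With the replicate number as a block in edgeR, 2 were called in MMP2sh1, TRIB3 as higher and PSAT1 as lower. The log2 fold changes lay between −0.19 and 0.28 over both lines, the highest being CHAC1 in MMP2sh2.

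At confluence few of the 10 genes were called, not far from the shares of all genes. In MMP2sh1 cells 3 of 10 were called at day 0, where 16.8% of all genes were, and in MMP2sh2 cells 2 of 10, where 12.9% were. DDIT4 was lower in both, at 16.4, 12.7 and 12.9 CPM in MMP2sh1 and 15.9, 15.5 and 18.5 CPM in MMP2sh2 libraries, against 24.6, 23.7 and 18.5 CPM in control libraries. Relative to control, DDIT4 was at a log2 fold change of −0.66 (standard error 0.10, adjusted p = 2.0e-05 from edgeR) and −0.43 (standard error 0.10, adjusted p = 0.0025 from edgeR), and the lines share their control libraries.

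In MMP2sh1 cells VLDLR was higher at day 0, with 26.2, 27.4 and 24.6 CPM against 17.5, 20.1 and 18.6 CPM in control libraries, a log2 fold change of 0.47 (standard error 0.08, adjusted p = 6.6e-05 from edgeR). TRIB3 was higher by 0.22, but this call was lost in 4 of 6 fits that left out 1 library (adjusted p up to 0.21 from edgeR). ASNS was called in MMP2sh2 and in the opposite direction to that seen later, with 76.5, 79.5 and 83.4 CPM against 88.8, 91.6 and 97.0 CPM in control libraries (log2 fold change −0.23, adjusted p = 0.0030 from edgeR).

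Overconfluent cells showed the broadest difference. At day +2, 7 of the 10 genes were higher and 1 was lower in MMP2sh1 than in control cells, where 14.8% of all 19294 genes tested were called, 7.68% as higher and 7.11% as lower. In MMP2sh2, 8 were higher and 1 was lower, where 6.32% of all 19339 genes were called, 2.89% as higher and 3.43% as lower. ATF4, TRIB3, ASNS, CHAC1, PSAT1, PHGDH and VLDLR were higher in both lines, and DDIT4 was lower in both. The median log2 fold change of the 10 genes was 0.41 in MMP2sh1 and 0.30 in MMP2sh2, and that of all genes was 0.00 in both. The 2 comparisons share their control libraries and are given side by side, not as independent evidence. Without control replicate 2, 5 of the 10 genes were called in MMP2sh2 in place of 9.

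**Figure D4:**
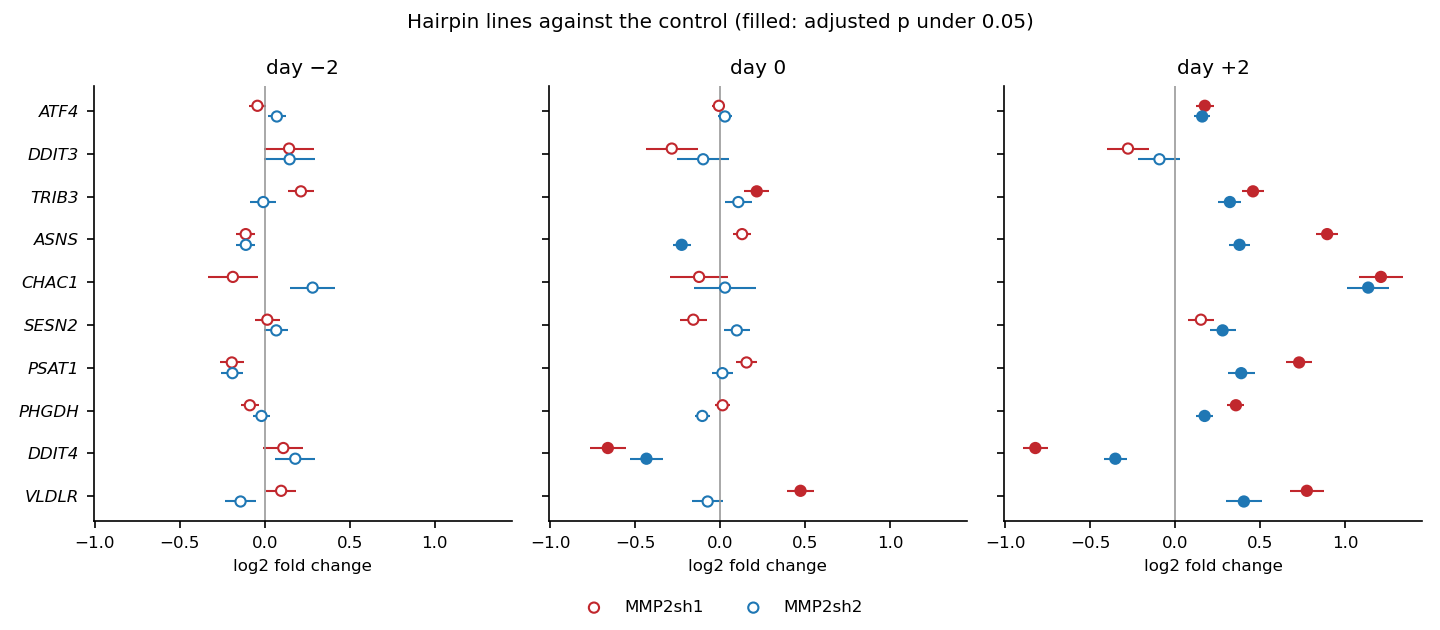
Log2 fold change of each gene (x axis) in MMP2sh1 and MMP2sh2 cells relative to control at each day (panels), with bars of 1 standard error and filled points for adjusted p under 0.05. No point is filled at day −2, while at day +2 there are 8 filled points for MMP2sh1 and 9 for MMP2sh2, led by CHAC1 at 1.21 and 1.13.

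The change of ATF4 mRNA was small. Its level at day +2 was 400.3, 415 and 396 CPM in control, 492, 419.8 and 457 CPM in MMP2sh1 and 435, 449.5 and 467 CPM in MMP2sh2 libraries. All 6 hairpin libraries lay above the 3 control libraries, the closest pair being 419.8 and 415 CPM. The log2 fold change was 0.17 in MMP2sh1 (standard error 0.05, adjusted p = 0.027 from edgeR) and 0.16 in MMP2sh2 (standard error 0.05, adjusted p = 0.038 from edgeR). With single libraries left out in turn the call was lost in 5 of 6 fits for MMP2sh1 and in 6 of 6 for MMP2sh2, with log2 values between 0.12 and 0.23 and adjusted p up to 0.13 and 0.2 from edgeR.

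CHAC1 had the largest fold change of the 10 in both lines. It was at 7.12, 7.07 and 5.59 CPM in control, 15.5, 12.8 and 17.5 CPM in MMP2sh1 and 16.3, 13.9 and 13.2 CPM in MMP2sh2 libraries. The groups did not overlap, and the lowest hairpin library was well above the highest control library. In log2 terms CHAC1 was higher by 1.21 (standard error 0.13, adjusted p = 5.0e-08 from edgeR) and 1.13 (standard error 0.12, adjusted p = 8.8e-09 from edgeR), from 231 to 731 counts per library. Among the 9 group means, these 2 groups were the highest, at 15.3 ± 2.38 and 14.5 ± 1.65 CPM (SD, n = 3), and their libraries overlapped. Next came MMP2sh2 at day −2 with 8.57 ± 0.956 CPM, and the 3 groups of day 0 were lowest, at 4.22 to 4.72 CPM, with overlapping libraries.

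ASNS was at 145, 141 and 123 CPM in control, 247, 234 and 281 CPM in MMP2sh1 and 172, 169 and 191 CPM in MMP2sh2 libraries at day +2. The 3 groups were fully apart, in the order control, MMP2sh2, MMP2sh1. Relative to control the log2 fold change was 0.89 in MMP2sh1 (standard error 0.07, adjusted p = 3.0e-11 from edgeR) and 0.38 in MMP2sh2 (standard error 0.06, adjusted p = 2.0e-05 from edgeR). Each call held in all 6 fits that left out 1 library.

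The serine enzymes followed the same order. PSAT1 was at 51.7, 50.4 and 41.1 CPM in control, 76.7, 74.7 and 86.1 CPM in MMP2sh1 and 59.5, 56.5 and 71.4 CPM in MMP2sh2 libraries, with log2 fold changes of 0.73 (adjusted p = 3.1e-08 from edgeR) and 0.39 (adjusted p = 7.1e-04 from edgeR). PHGDH was at 341, 343 and 326 CPM in control, 433, 417 and 445 CPM in MMP2sh1 and 377, 378 and 383 CPM in MMP2sh2 libraries, with log2 fold changes of 0.36 (adjusted p = 4.7e-06 from edgeR) and 0.17 (adjusted p = 0.021 from edgeR). No control library of either gene reached a hairpin library. The PHGDH call in MMP2sh2 was lost without control replicate 2 or 3 or MMP2sh2 replicate 1 or 2 (adjusted p up to 0.17 from edgeR).

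TRIB3 was at 38.9, 38.6 and 38.1 CPM in control, 53.8, 50.1 and 55.1 CPM in MMP2sh1 and 47.4, 48.9 and 48.3 CPM in MMP2sh2 libraries. The libraries of these 3 groups were again apart, but the difference between the hairpin lines was not called (0.13, adjusted p = 0.25 from edgeR). Relative to control the log2 fold change was 0.46 (standard error 0.07, adjusted p = 9.9e-06 from edgeR) and 0.32 (standard error 0.07, adjusted p = 0.0013 from edgeR). SESN2 was called in MMP2sh2 but not in MMP2sh1, with log2 fold changes of 0.28 (adjusted p = 0.017 from edgeR) and 0.15 (adjusted p = 0.22 from edgeR). The difference between the hairpin lines was itself not called for SESN2 (log2 fold change of MMP2sh1 over MMP2sh2 −0.13, adjusted p = 0.39 from edgeR), and the call in MMP2sh2 was lost without control replicate 1 or 2 or MMP2sh2 replicate 2 (adjusted p up to 0.16 from edgeR).

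VLDLR was higher at day +2 in both hairpin lines. It was at 13.7, 12.02 and 11.2 CPM in control, 19.7, 22.4 and 20.9 CPM in MMP2sh1 and 16.6, 15.4 and 16.7 CPM in MMP2sh2 libraries at day +2. No groups overlapped. On the log2 scale VLDLR was higher by 0.77 (standard error 0.10, adjusted p = 1.4e-06 from edgeR) and 0.40 (standard error 0.10, adjusted p = 0.011 from edgeR), and the second was lost without control replicate 2 or 3 or MMP2sh2 replicate 1 (adjusted p up to 0.1 from edgeR).

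DDIT4 and DDIT3 did not move with the others. DDIT4 was at 66.1, 81.8 and 80.9 CPM in control, 42.1, 45.0 and 42.5 CPM in MMP2sh1 and 59.7, 61.7 and 57.9 CPM in MMP2sh2 libraries, so all hairpin libraries lay below the control libraries. Its log2 fold change was −0.82 (standard error 0.07, adjusted p = 1.3e-09 from edgeR) and −0.35 (standard error 0.07, adjusted p = 4.0e-04 from edgeR). DDIT3 was at 10.0, 11.0 and 9.34 CPM in control, 9.12, 7.83 and 8.17 CPM in MMP2sh1 and 9.90, 10.5 and 8.10 CPM in MMP2sh2 libraries. Its log2 fold changes of −0.28 and −0.09 did not pass the test (adjusted p = 0.14 and 0.77 from edgeR), with 306 to 450 counts per library.

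The hairpin lines were also compared with each other, without the control libraries. At day +2, 4 of the 10 genes were higher and 1 was lower in MMP2sh1 than in MMP2sh2, where 7.86% of all genes were called. ASNS was higher by 0.51 on the log2 scale (standard error 0.06, adjusted p = 7.3e-06 from edgeR), VLDLR by 0.37, PSAT1 by 0.34 and PHGDH by 0.18, while DDIT4 was lower, at −0.47 (standard error 0.07, adjusted p = 3.0e-05 from edgeR). The calls of PSAT1 and PHGDH were lost without MMP2sh2 replicate 1 or 2 or MMP2sh1 replicate 3, and that of VLDLR without replicate 2 of either line (adjusted p up to 0.065, 0.11 and 0.095 from edgeR). TRIB3, CHAC1 and ATF4 were not called, with 0.13 (standard error 0.07), 0.07 (standard error 0.12) and 0.01 (standard error 0.05). At day 0, 4 of 10 were called, where 18.5% of all genes were, with VLDLR at 0.55, ASNS at 0.36, PHGDH at 0.12 and SESN2 at −0.25, of which the last pair were each lost in 3 of 6 fits that left out 1 library (adjusted p up to 0.19 and 0.18 from edgeR). At day −2 only CHAC1 was called, at −0.48 (adjusted p = 0.040 from edgeR), where 10.7% of all genes were, and this call was lost in 4 of 6 fits that left out 1 library (adjusted p up to 0.2 from edgeR).

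Other genes of the pathway were read at day +2 from lists that, like the members, were chosen with earlier results of these data known. Beside each count against control below stand the shares of all genes tested. In MMP2sh1 7.68% were higher and 7.11% lower, and in MMP2sh2 2.89% were higher and 3.43% lower. Amino acid transporters were higher in 7 of 8 measured cases in MMP2sh1 (median log2 fold change 0.67) and in 7 of 8 in MMP2sh2 (median 0.40), and none was lower. SLC7A11, the cystine importer, was at 46.6 ± 7.42 CPM in control, 103 ± 14.6 in MMP2sh1 and 69.6 ± 4.83 in MMP2sh2 cells (SD, n = 3), log2 fold changes of 1.15 and 0.58. SLC1A4, a carrier of neutral amino acids, was higher by 0.71 and 0.46, SLC7A5, the subunit of the leucine carrier LAT1, by 0.72 and 0.42, and SLC6A9, a glycine carrier, by 0.66 and 0.55. The genes named from each list are those with the largest called change in either line, and values are given for MMP2sh1 and then MMP2sh2.

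Among enzymes of amino acid and one-carbon metabolism other than the members, 9 of 10 were higher in MMP2sh1 (median 0.40) and 5 of 10 in MMP2sh2 (median 0.29), again with none lower. ALDH1L2, a mitochondrial folate enzyme, was at 8.999 ± 0.984 CPM in control, 21.4 ± 2.46 in MMP2sh1 and 12.02 ± 0.435 in MMP2sh2 cells, with log2 fold changes of 1.25 and 0.42. GPT2, the mitochondrial alanine aminotransferase, was higher by 0.53 and 0.39. CTH, which makes cysteine from cystathionine, was higher by 0.61 in MMP2sh1 and was not called in MMP2sh2 (0.30). CBS, the enzyme before it, was higher by 0.53 and 0.38.

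The tRNA charging list, aminoacyl-tRNA synthetases and the tRNA exporter XPOT, had 10 of 13 genes higher in MMP2sh1 (median 0.35) and 8 of 13 in MMP2sh2 (median 0.21), with none lower. CARS, the synthetase for cysteine, was higher by 0.52 and 0.34. WARS, for tryptophan, was higher by 0.48 and 0.25, and GARS, for glycine, by 0.47 and 0.25. MARS, for methionine, was higher by 0.44 and 0.28, and YARS, for tyrosine, by 0.37 and 0.25. In control cells from day 0 to day +2, 9 of 13 tRNA charging genes were lower and none higher (median −0.22), where 20.1% of all genes were lower. In the same step 4 of 8 transporters were lower and 1 higher (median −0.13), and 3 of 10 synthesis enzymes were lower and none higher (median −0.07).

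Other arms of the response were read in the same way. Of 7 stress factors and feedback genes, 3 were higher and 2 lower in MMP2sh1, and 1 was higher in MMP2sh2 (medians 0.21 and 0.06). JDP2, a repressor of the AP-1 and ATF family, was higher by 0.35 and 0.26, NUPR1, a stress-induced chromatin protein, was higher by 0.30 in MMP2sh1 and at 0.06, not called, in MMP2sh2. CEBPB, a C/EBP factor, was lower in MMP2sh1, at −0.31, and at −0.13, not called, in MMP2sh2. Of 11 genes for eIF2 kinases, eIF2 and eIF2B subunits and an eIF2 phosphatase subunit, 1 was higher in MMP2sh1, PPP1R15B with 0.21, and edgeR called 0 in MMP2sh2, where 1 had an unadjusted p under 0.05. Of the secreted targets, 2 of 4 tested were higher and 1 lower in MMP2sh1 (median 0.45), and 2 of 5 were higher and 1 lower in MMP2sh2 (median 0.42). GDF15, a stress cytokine, was lower in both lines, at −1.22 and −0.42, and ADM2, a peptide hormone, was higher by 0.61 and 0.42. VEGFA, an angiogenic factor, was higher by 0.29 in MMP2sh1 and at 0.15, not called, in MMP2sh2. STC2 did not pass the filter on low counts in the MMP2sh1 comparison. It was called higher in MMP2sh2 on 17 to 44 counts against 1 to 6 in control libraries. There it passed the filter only through the MMP2sh2 libraries, where it was high, and is 1 of the 2 counted as higher.

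Of 16 ER folding genes, 4 were higher and none lower in MMP2sh1, and 1 was higher and 2 lower in MMP2sh2 (medians 0.07 and 0.00). HERPUD1, which takes part in ER-associated degradation, was higher by 0.59 and 0.29. XBP1, a transcription factor of the unfolded protein response, and HSPA5, the main ER chaperone, were higher by 0.48 and 0.25 in MMP2sh1 and at 0.07 and 0.01, not called, in MMP2sh2. EDEM1 and CALR were lower in MMP2sh2, at −0.24 and −0.17, and at 0.04 and 0.02, not called, in MMP2sh1.

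Lists for p53 and hypoxia were read because several members, among them SESN2 and DDIT4, are also known targets of those responses. Of 11 p53 targets, 3 were lower and none higher in MMP2sh1 (median −0.15), and 2 were higher and none lower in MMP2sh2 (median 0.12). BBC3 and BTG2 were lower in MMP2sh1, at −0.48 and −0.32, and at −0.05 and 0.23, not called, in MMP2sh2. GADD45A was higher by 0.28 in MMP2sh2 and at −0.13, not called, in MMP2sh1, and TP53INP1 was at −0.31 in MMP2sh1 and 0.30 in MMP2sh2. Of 10 hypoxia targets, 7 were lower in MMP2sh1 (median −0.54) and 8 in MMP2sh2 (median −0.59), with none higher. In control cells 8 of the 10 rose and 1 fell from day 0 to day +2 (median 0.69), where 21.3% of all genes were called as higher. ADM, the peptide adrenomedullin, was at 8.02 ± 1.29 CPM in control, 3.85 ± 0.424 in MMP2sh1 and 3.13 ± 0.0446 in MMP2sh2 cells. EGLN3, an oxygen-sensing hydroxylase, was at −1.36 and −1.16. CA9, a carbonic anhydrase, was called lower on 0 to 8 counts per hairpin library against 13 to 76 in control libraries. CA9 passed the filter on low counts only through the control libraries, where it was high, and its calls are among those counted as lower. The part of these responses in the levels of DDIT4 and SESN2 was not tested.

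**Figure D5:**
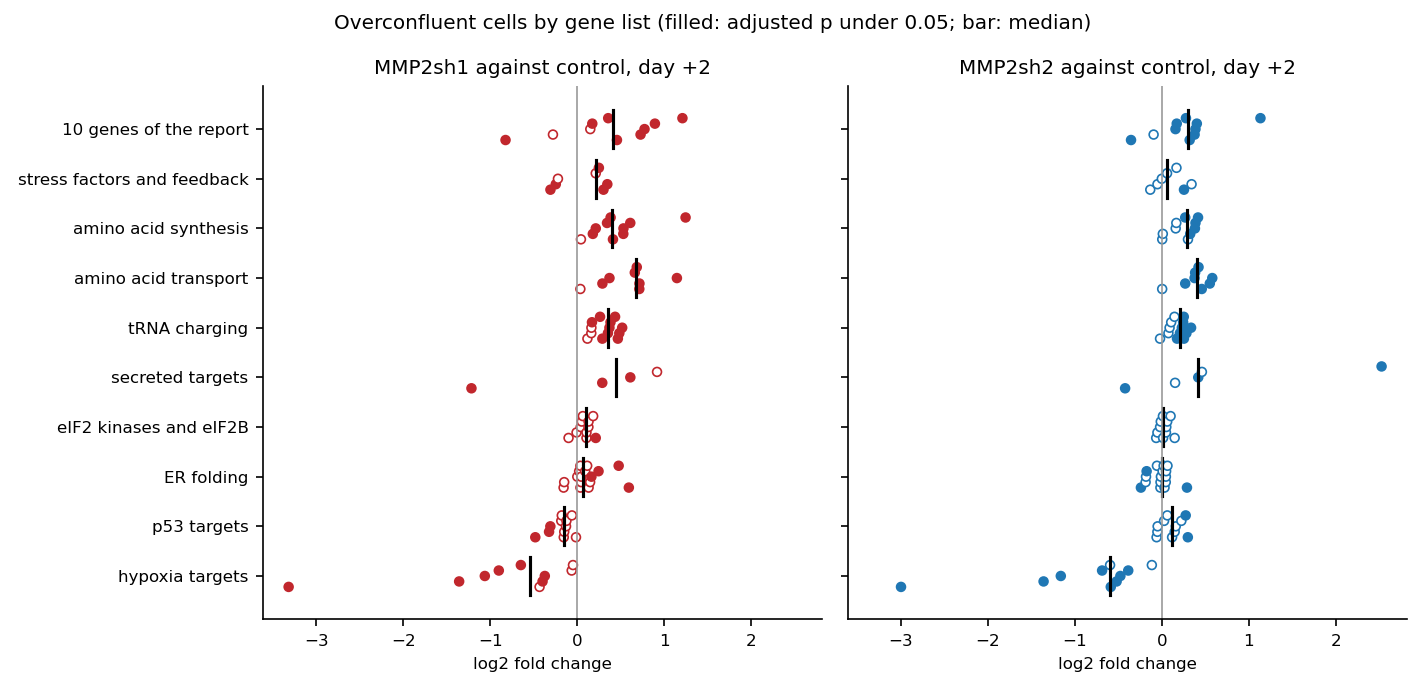
Log2 fold change relative to control at day +2 (x axis) for the 10 genes and 9 further lists (rows), in MMP2sh1 (left) and MMP2sh2 (right), with 1 point for each gene tested, filled where adjusted p was under 0.05, and a bar at the median of each list. The transporter row has its median at 0.67 and 0.40, and the hypoxia row at −0.54 and −0.59.

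Some measures of the libraries moved with the groups. Mitochondrial genes took 5.49% to 6.37% of counts in control, 6.53% to 7.15% in MMP2sh1 and 6.10% to 6.41% in MMP2sh2 libraries at day +2. Of the 4 bone and mesenchymal markers tested, SPARC, COL1A1 and VIM were higher in MMP2sh1 at day +2, by 0.40, 0.26 and 0.15 on the log2 scale, and none was called in MMP2sh2. The part of either in the differences above was not tested. Cell density per library is not given with the counts. The study also followed the growth of the 3 lines and reported no significant impairment of proliferation after MMP-2 depletion. Those cell numbers were not used here.

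Reads were counted without strand, and reads over exons of more than 1 gene were set aside. The annotation used for counting was not used here, so how far this touched the members was not tested. In the GENCODE v44 annotation, 39.6% of the exon bases of DDIT3 also lie in exons of other genes, among them MARS1 (MARS in the lists above), and 49.3% of those of ASNS lie in exons of unnamed genes. For VLDLR the share was 8.24%, from its antisense gene and another, and for the other 7 it was 0%. Reads on the pseudogene ASNSP1 reached 128 per library, 4.68% of the lowest ASNS count.

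The members were not alike in their course over the 9 groups. Over the 9 group means of log2 CPM, ASNS and PHGDH had a Pearson r of 0.99 and ATF4 and SESN2 one of 0.92, while DDIT4 and VLDLR had one of −0.79. These are descriptions over 9 points that share libraries, days and lines. The genes outside the list whose course was most like the mean of the 9 members other than ATF4 were WDR81, PSD4, ABR, CORO2B and CCL2 (r of 0.98 to 0.99 over the 9 group means, the highest of 7083 genes compared). For ATF4 they were ZNF408, RARA, ZNF574, VAC14 and HECTD3 (r of 0.94 to 0.96).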

How the data were processed

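Poly(A) libraries made with the NEBNext Ultra II kit were sequenced in paired-end mode. Per the submitters' processing notes, Trim Galore 0.6.0 removed adapters, STAR 2.7.3a mapped the reads (build hg19), and the deposited values are raw read counts per gene symbol, which the authors made with HTSeq 2.0.0 (exons, union mode, without strand), 1 file per library. The HTSeq summary lines, 16.8% to 19.1% of each total, stayed out of library sizes and tests.

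Each comparison was fitted on its own 6 libraries (12 for interactions) with edgeR 4.0.16 in R 4.3.3: TMM scaling, filterByExpr (minimum count 10, minimum total 15), quasi-likelihood test and Benjamini-Hochberg adjustment over all genes tested. The standard error is the size of the log2 fold change divided by the square root of F. Groups were taken from the sample labels. The scripts were tested on simulated data. Alternatives were DESeq2 1.42.0, median-of-ratios scaling, no filter, at least 10 counts in every library, all 27 libraries in 1 fit, the replicate number as a block and each library left out in turn.

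All 10 members were named. From each other list, at most the 3 called genes with the largest absolute log2 fold change in each hairpin comparison at day +2 were named. Likeness was taken as Pearson's r among genes with a mean of at least 5 CPM and a range of at least 0.5 in log2 CPM. The members and lists were chosen with earlier results of these data known. Starts are those of the canonical transcript, or the principal one for DDIT4.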

Additional observations from a re-analysis of the deposited data

Results flagged for a closer look

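The change over a step of culture differed between a hairpin line and the control in 11 cases among the 10 genes, by the interaction of line and day (edgeR's quasi-likelihood test, Benjamini-Hochberg adjustment over all genes). From day 0 to day +2 the difference on the log2 scale between MMP2sh1 and control was 1.34 for CHAC1, 0.77 for ASNS, 0.58 for PSAT1 and 0.34 for PHGDH. Between MMP2sh2 and control it was 1.10 for CHAC1, 0.60 for ASNS, 0.47 for VLDLR, 0.37 for PSAT1 and 0.27 for PHGDH. From day −2 to day 0 it was −0.77 for DDIT4 in MMP2sh1 and −0.60 in MMP2sh2. Both hairpin lines were set against the same control libraries.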

How the results depend on the processing

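Of 190 log2 fold changes of the members (10 genes in 19 comparisons), 91 were called, and none of the called values changed sign under any alternative. The 6 alternative fits gave 1140 values, of which 14 lost a call and 11 gained one. The fits without 1 library gave 1380 values, of which 95 lost a call and 10 gained one. Signs changed in 23 uncalled values, the largest of size 0.15. The call of ATF4 at day +2 was lost for MMP2sh1 with the replicate block (adjusted p = 0.082 from edgeR) and for MMP2sh2 without the filter and with all 27 libraries in 1 fit (adjusted p = 0.054 from edgeR in both). That of PSAT1 in the MMP2sh2 interaction was lost with DESeq2 (adjusted p = 0.051), all 27 libraries (0.058) and the block (0.056).

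The changes in the number of members called that were largest in proportion were as follows. Smaller ones are left out, such as 4 in place of 5 with DESeq2 for the MMP2sh2 interaction from day 0 to day +2. For MMP2sh1 against control at day −2 it was 2 in place of 0 with the replicate block. For MMP2sh2 at day −2 it was 1 in place of 0 with DESeq2 and with at least 10 counts in every library. Between the hairpin lines at day −2 it was 0 in place of 1 with DESeq2 and 2 with the block. For the MMP2sh1 interaction from day −2 to day 0 it was 2 in place of 1 with DESeq2, without the filter, with at least 10 counts and with the block. The gene gained was PSAT1. In that comparison all genes called with DESeq2 were 496 in place of 279. The causes were not tested.

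Replicate numbers did not pair the libraries. The measure was the correlation of deviations of log2 CPM from the group mean, not of the levels themselves. For same-numbered libraries it lay between −0.025 and 0.036 over 45 pairs in 15 comparisons. In 2 of the 15 comparisons every library correlated best with its own number by this measure. The replicate block lost 3 calls of members and gained 5.

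With single libraries left out, the ranges of the number of members called (lowest to highest, beside the value from all libraries) were 0 to 1 (0) for MMP2sh1 against control at day −2, 5 to 8 (9) for MMP2sh2 at day +2, 0 to 1 (1), 2 to 4 (4) and 2 to 5 (5) between the hairpin lines at days −2, 0 and +2, and 4 to 6 (7) for MMP2sh1 from day −2 to day 0. For the interactions over the first step they were 0 to 2 (1) for MMP2sh1 and 0 to 1 (1) for MMP2sh2. Over the second step the range was 2 to 5 (5) for MMP2sh2. Comparisons with smaller shifts in proportion are left out, such as MMP2sh1 against control at day +2 with 7 to 8 (8). Over all genes the ranges were 1321 to 2274 (2184) for MMP2sh1 at day −2, 728 to 1743 (2080), 1509 to 2257 (2456) and 679 to 1440 (1222) for MMP2sh2 at days −2, 0 and +2, and 1208 to 1946 (2009) and 885 to 1625 (1527) between the hairpin lines at days −2 and +2. For the interactions they were 144 to 512 (279) and 610 to 1269 (967) for MMP2sh1 over the first and second step, and 375 to 742 (750) and 643 to 1140 (984) for MMP2sh2. At day +2 the lowest counts over all genes came without control replicate 3 for MMP2sh2 and without MMP2sh2 replicate 1 between the hairpin lines. Of the members, 5 were called in MMP2sh2 at day +2 without control replicate 2, and between the hairpin lines at day +2 there were 2 without MMP2sh2 replicate 2 and 3 without MMP2sh2 replicate 1 or MMP2sh1 replicate 3. Between them at day 0 there were 2 without MMP2sh2 replicate 1, and at day −2 there were 0 without replicate 1 or 2 of MMP2sh1 or replicate 2 or 3 of MMP2sh2. For MMP2sh1 from day −2 to day 0 there were 4 without its replicate 1 of day 0. In the MMP2sh2 interaction over the second step there were 2 without MMP2sh2 replicate 1 of day 0.

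With 3 libraries against 3, small differences such as that of ATF4 lie near what the test can call. The calls of CA9 and STC2 rest on under 100 counts in every overconfluent library. Each of these genes passed the filter on low counts only through the group where it was high.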
